A study of Mus musculus with 26 samples.

Results

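Cytosolic ribosomal protein genes were taken as the genes whose mouse symbol is Rps or Rpl followed by a number and at most 1 letter, together with Rplp0, Rplp1, Rplp2 and Rpsa. The rule found 83 members among the 55487 genes of the table. Of these, 30 encode proteins of the small ribosomal subunit, 46 encode proteins of the large subunit, and 7 carry the symbol of a -like paralogue. Among these 7, GENCODE M21 annotates 2 as processed pseudogenes, Rpl6l being one, and 1, Rps4l, as a transcribed processed pseudogene. RNA came from pieces of proximal small intestine of C57BL/6N mice that were 8 to 12 weeks old. Knockout mice (labelled tg; tamIEC-KO, that is floxed alleles of the targeted gene with the Villin-creERT2 transgene) and control mice (labelled wt; the floxed alleles without the transgene) both carried the floxed alleles and both received 5 daily injections of tamoxifen. Tissue was taken 3 days (7 knockout and 7 control mice) or 7 days (6 and 6) after the last injection, and libraries of transcript 3′ ends (QuantSeq) were counted. The Villin promoter drives Cre in intestinal epithelial cells only, whereas the tissue pieces also held muscle, stroma and immune cells. In such bulk samples fewer cells of a type and less RNA per cell cannot be told apart.

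The ribosome joins a small subunit, which reads the mRNA, to a large subunit, which forms peptide bonds. Each subunit is a shell of small basic proteins around ribosomal RNA, and most of these proteins are needed in equal numbers. Their mRNAs are among the most abundant of growing cells, and many start with a cytosine followed by an unbroken run of pyrimidines, the 5′ terminal oligopyrimidine (TOP) tract, through which mTORC1 and LARP1 set their translation and stability. In the intestine, production of ribosomes is known to be high in the dividing cells of the crypt.

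The 6 windows that follow show this start for members that differ in their response at 7 days. They hold the 10 bases before the annotated RefSeq start (GRCm38.p6) and the 20 bases from it on, 5′ to 3′ on the strand of the gene, and capitals mark a run of at least 5 pyrimidines that begins with C within 5 bases of that start. Rpl13a (chr7:45128726-45128755, minus strand) had one of the largest rises, Rpl27a (chr7:109519185-109519214, plus strand) and Rpl6 (chr5:121204491-121204520, plus strand) are members that fell, and Rps15a (chr7:118116128-118116157, minus strand), Rps26 (chr10:128626487-128626516, minus strand) and Rpl4 (chr9:64173377-64173406, plus strand) are members of high counts that rose. They were chosen after their values were seen.
Rpl13a: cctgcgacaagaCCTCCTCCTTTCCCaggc
Rps15a: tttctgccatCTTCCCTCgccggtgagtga
Rps26: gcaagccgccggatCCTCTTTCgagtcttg
Rpl4: tttcctgtgggagcagccgggtagagagga
Rpl27a: cgtgagCTCCTCCCTTTTCCCTTTCTgcca
Rpl6: acctcccgtcattgcttatagaccggaagc

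The run was thus present beside the annotated start of Rpl13a, which rose, and of Rpl27a, which fell, and no such run began within 5 bases of the start of Rpl4, which rose, or Rpl6, which fell. The windows of Rpl4 and Rpl6 each hold a run of pyrimidines farther upstream, outside that limit. The bases where transcription starts were not measured here. A missing run beside an annotated start therefore does not show that a transcript lacks the tract. In all, 61 of the 83 members were matched by symbol in the RefSeq table of 27025 genes. A run beginning exactly at an annotated start was present for 14 of these 61 members (23.0%) and for 2.96% of the other 26964 genes, and a run within 5 bases of it for 29 members (47.5%) and 21.1% of the other genes. In the windows of 250 bases before to 50 bases after a start, searched on both strands, CCGGAAG, the core bound by ETS factors, was present for 25 members (41.0%) and 9.86% of the other genes. GCCATNTT, bound by YY1, was present for 11 members (18%) and 6.94%, and GGGCGG, bound by SP1, for 36 members (59.0%) and 38.2%. TATAAA, the TATA box, was present for 7 members (11.5%) and 15.7%. Among the matched members, a run within 5 bases of the start was present for 18 of the 36 that rose at 7 days and for 10 of the 20 that passed no threshold there. These matches describe letters and not bound sites.

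Libraries held 3720168 to 6338016 counts, and members took 0.573% to 1.20% of them. This small share was uneven. Of the 83 members, 30 had a mean of at least 100 counts per library, 37 had 10 to 100, and 16 had fewer than 10. The 5 members with the most counts held 56.4% of the members' counts, Rplp1 (mean 10962 counts), Rpl8 (3416), Rpl4 (3166) and Rps3 (2846) among them, whereas Rps6, which S6 kinase phosphorylates, had a mean of 1.04 counts. The other members under 10 counts were Rpl10, Rpl11, Rpl24, Rpl27, Rpl28, Rpl29, Rpl35, Rpl36, Rpl36a, Rps16, Rps4x, Rpl39l, Rpl3l, Rpl10l and Rpl6l, and the last 2 had 0 counts in all 26 libraries, which allows up to 3 counts in a library, or 0.473 to 0.806 CPM (counts scaled to a common library total), for counting error only. The authors kept alignments with a mapping quality of at least 30, and ribosomal protein genes have many near-identical processed pseudogenes. In GENCODE M21, 79 members shared a 35-base word of the last 300 coding bases with an annotated pseudogene. The share of these words that also occurred in another gene was 20.7% for Rpl4, 27.4% for Rps3 and 29.3% for Rpl8, whereas its median was 86.8% in members with at least 100 counts, 100% in those with 10 to 100 and 100% in those with fewer than 10. Several members lay off this order. Rplp1 (79.3% of words elsewhere), Rps26 (86.8%, mean 2545 counts) and Rps20 (89.8%, 2797 counts) had high counts, and Rpl3l (0%, 0.538 counts), Rpl39l (10.9%, 0.615 counts) and Rpl10l (32.3%, 0 counts) had few or none. The part of read filtering in the low counts was not tested, and levels are compared here only between mice and not between genes. In addition, 37 members overlapped exons of another gene, 17 of them on the opposite strand, and no strand setting of the counting is given in the sources used here.

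**Figure D1:**
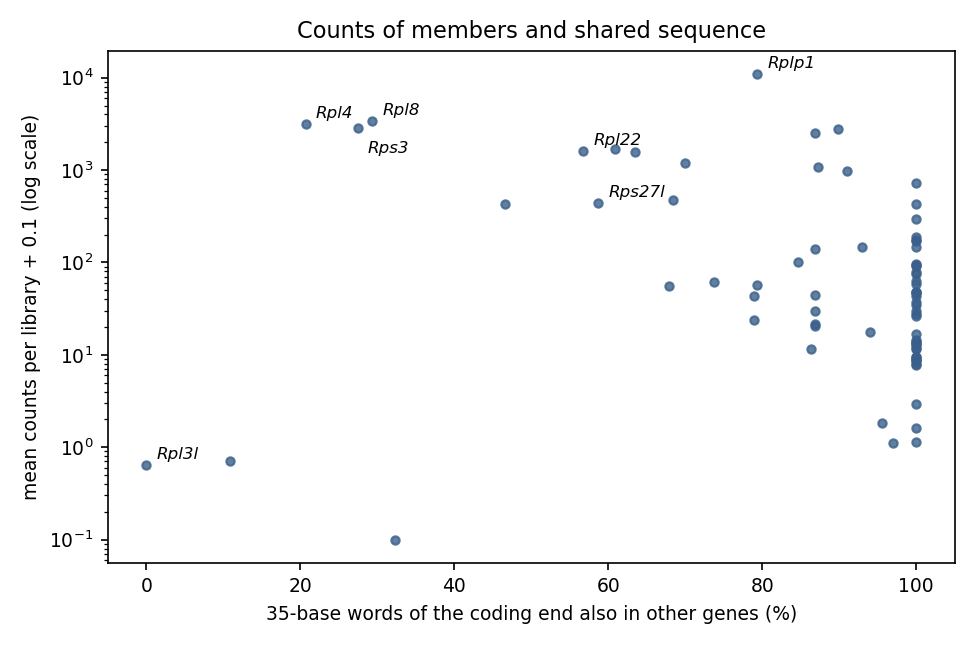
Mean counts per library of members (log scale, 0.1 added) against the percent of 35-base words in the last 300 coding bases that also occur in transcripts of other genes, 1 point for each member shown. Rpl4, Rps3 and Rpl8 stand at the upper left, with 20.7% to 29.3% of shared words and 2846 to 3416 counts, and the members with under 10 counts sit at 95.5% to 100%, apart from Rpl3l, Rpl39l and Rpl10l.

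Markers of several cell types moved with the groups. At 7 days the 12 enterocyte markers summed to 4067 to 5984 CPM in knockout mice and to 16267 to 29864 CPM in control mice, and 11 of the 12 fell. Of the 13 proliferation markers 12 fell and 1 rose, and they summed to 729 to 917 CPM in control mice and 215 to 333 CPM in knockout mice. Of the 8 stem cell markers 6 fell (438 to 614 CPM against 176 to 237 CPM), and of 6 tested lymphocyte and plasma cell markers 4 fell (medians of 823 CPM and 302 CPM). Other lists had fewer calls: 2 of 6 goblet, 1 of 6 Paneth and 2 of 7 enteroendocrine cell markers fell. Of 3 tuft cell markers tested 1 rose and 1 fell. Among all genes tested at 7 days 19.7% rose and 18.8% fell. Transcripts of pancreas or stomach exceeded 10000 CPM in 7 libraries (replicates 1 and 2 of tg.3d, 2, 3 and 5 of wt.3d, 4 of tg.7d and 2 of wt.7d), and the enterocyte markers were under 2500 CPM in 3 of the 3-day libraries (replicate 1 of tg.3d, 2 and 5 of wt.3d). In the knockout mice at 7 days the stomach markers Gkn2 and Muc5ac were at 0. The 10 pancreas markers ran from 32.3 to 15570 CPM in that group, and the 6 smooth muscle markers from 663 to 968 CPM against 579 to 1037 CPM in control mice. The part of these cell types and tissues in the values that follow was not tested, and the main counts are also given without those libraries.

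The share of all counts that members took is the plainest view of the group. At 3 days it was lowest at 0.635%, with a median of 0.810% and a highest value of 0.883%, in control mice. In knockout mice the lowest was 0.696%, the median 0.864% and the highest 1.04%, so the groups overlapped and the medians differed by a ratio of 1.07. At 7 days control mice had 0.573%, 0.616% and 0.663% as lowest, median and highest value. Knockout mice of that day had 1.05%, 1.13% and 1.20%, every mouse above every control mouse, with a ratio of medians of 1.83. Without Rplp1 the 7-day groups were still apart, at 0.455% to 0.526% against 0.776% to 0.898%. The 319 ribosomal protein pseudogenes with -ps symbols, left out by the rule, took 0.0749% to 0.0852% in control mice and 0.136% to 0.178% in knockout mice at 7 days. A sum over members is dominated by a few genes, so single members follow.

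**Figure D2:**
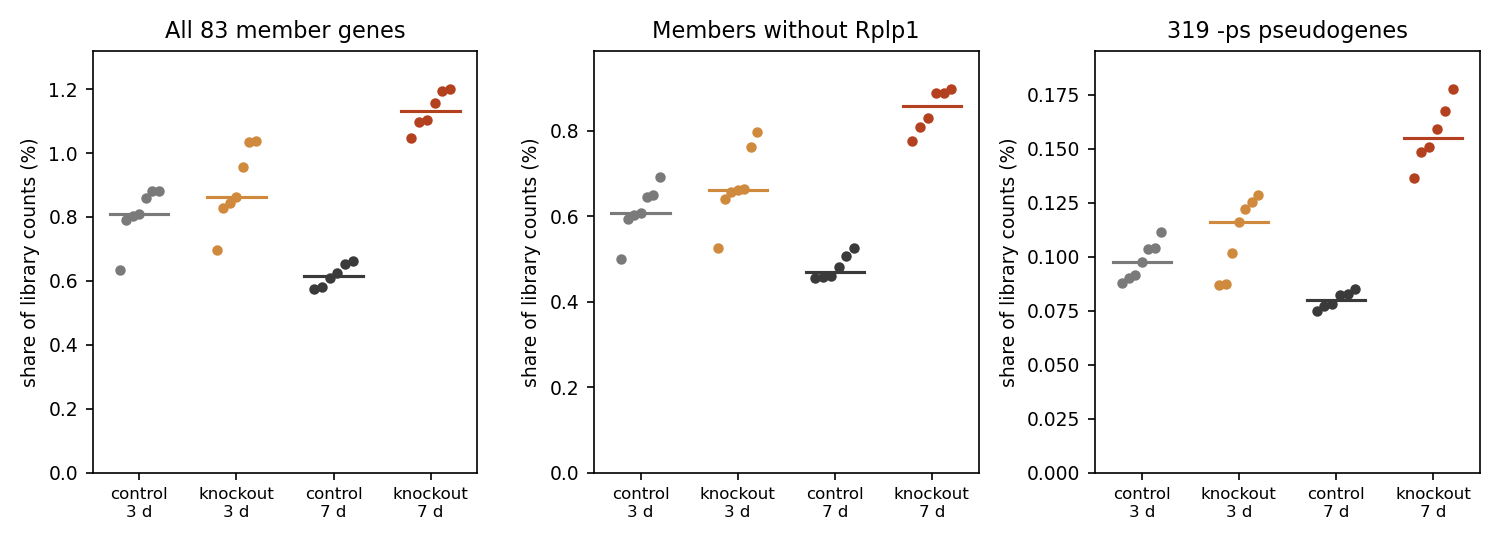
Percent of library counts in all 83 members (left), in members without Rplp1 (middle) and in 319 -ps pseudogenes (right), 1 point per mouse with the group median as a line, for control and knockout mice at 3 and 7 days. At 7 days the 6 knockout mice sit at 1.05% to 1.20% in the left panel, above the 6 control mice at 0.573% to 0.663%, and at 3 days the groups overlap.

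At 7 days most members with measurable counts were higher in knockout intestine. Of 78 members tested, 49 rose, 3 fell (Rps4l, Rpl6 and Rpl27a) and 26 passed no threshold (edgeR quasi-likelihood test, adjusted p under 0.05 over 20259 genes). Among all genes tested, 19.7% rose and 18.8% fell. The median log2 fold change of members was 0.71, against -0.02 over all genes tested. Rpl3l, Rpl10l, Rpl39l, Rpl6l and Rpl29 had too few counts to be tested. All 6 knockout mice lay above all 6 control mice for 29 members, where 11.0% of all genes tested did so, and below them for 1 member, Rps4l, where 11.6% did so. The members that rose numbered 48 with DESeq2, 47 without the libraries rich in pancreas or stomach transcripts and 42 with scores of these transcripts as covariates. The shares of all genes called in these 3 fits are not given here, so these counts have no background beside them.

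**Figure D3:**
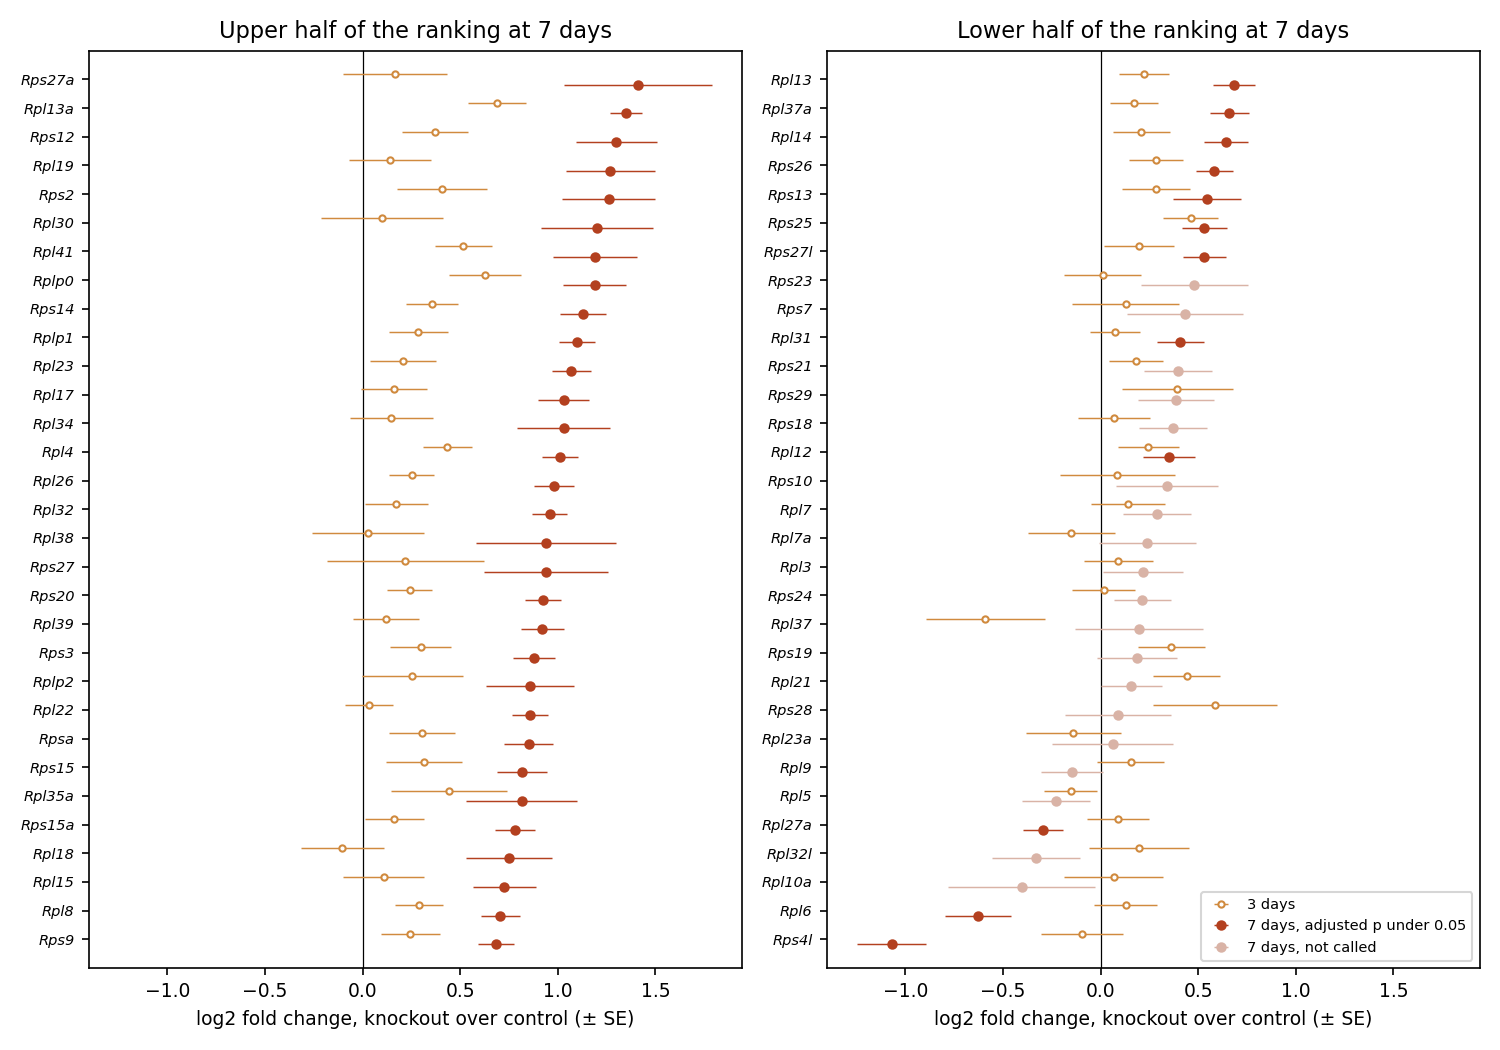
Log2 fold change of knockout over control mice with its SE at 3 days (open points) and 7 days (filled points, dark where the adjusted p was under 0.05) for members shown with a mean of at least 10 counts, ranked by the 7-day value from the top of the left panel to the bottom of the right panel. Every member of the left panel was called at 7 days, and Rpl27a, Rpl6 and Rps4l are the called members left of 0, at -0.30, -0.63 and -1.07.

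Both subunits took part. In the small subunit 18 of 30 tested members rose, with a median log2 fold change of 0.69, and in the large subunit 30 of 45 rose and 2 fell, with a median of 0.82. The difference between subunits was not tested. Among the 30 members with a mean of at least 100 counts 26 rose, 3 fell and 1, Rps24, passed no threshold (0.21, 95% interval -0.07 to 0.50). Of the 37 members with 10 to 100 counts 19 rose, and of the 11 tested members with fewer counts 4 rose (Rpl10, Rpl11, Rpl24 and Rpl27). The medians of these classes were 0.80, 0.43 and 0.86. Some calls at low counts did not hold when 1 mouse was left out in turn. Those of Rpl10 and Rpl38 were lost in 10 of these fits, Rpl12 in 9, Rpl35a in 8 and Rps13 in 4. Those of Rpl24 and Rpl27 each depended on a single mouse, replicate 1 and replicate 2 of tg.7d.

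Rpl13a, Rpl41 and Rps14 were among the 5 largest called rises of members with at least 100 counts. Rpl13a, a large subunit protein also known to silence inflammatory mRNAs after its release from the ribosome, was at 43.3, 46.1 and 52.4 CPM (lowest, median, highest) in control mice and at 108, 118 and 127 CPM in knockout mice. The groups were far apart, and the log2 fold change was 1.35 (SE 0.08, adjusted p = 4.6e-10). Rpl41, the shortest member with 75 coding bases, overlapped slightly between groups, at 13.5 to 34.0 against 32.6 to 64.6 CPM (1.19, SE 0.21, adjusted p = 0.00019). Rps14, a protein of the small subunit platform, was at 50.6 to 68.2 CPM in control and 101 to 160 CPM in knockout mice (1.13, SE 0.12, adjusted p = 4.5e-07).

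The P stalk, a flexible arm of Rplp0 with dimers of Rplp1 and Rplp2, brings elongation factors to the ribosome, and its 3 genes all rose. Rplp1 was at 1185, 1403 and 1490 CPM in control mice and at 2649, 2818 and 3070 CPM in knockout mice (log2 fold change 1.1, SE 0.09, adjusted p = 2.7e-08). Rplp0 had few counts (mean 62.0), with 4.28, 7.85 and 8.46 CPM in control and 13.0, 15.3 and 17.2 CPM in knockout mice, and the groups did not overlap (1.19, SE 0.16, adjusted p = 1.0e-05). Rplp2, at 2.05 to 5.05 against 4.50 to 6.34 CPM, overlapped slightly (0.86, SE 0.22, adjusted p = 0.0051).

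The exit tunnel and its opening carry the nascent chain, and 6 of its 8 tested members rose, with a median log2 fold change of 1.0. Among all members 49 of 78 rose, with a median of 0.71, and the difference was not tested. Rpl4, whose long loop reaches into the tunnel, was at 387 to 454 CPM in control and 740 to 956 CPM in knockout mice (log2 fold change 1.01, SE 0.09, adjusted p = 7.7e-08). The rises of Rpl17, Rpl39, Rpl19 and Rpl26 were 1.03, 0.92, 1.27 and 0.98, and that of Rpl31 was smaller, at 0.41. Rpl23a, the docking site of the signal recognition particle, had 0.06 (95% interval -0.54 to 0.66), and Rpl35 had a mean of 1.75 counts and an interval of -0.23 to 3.00, so neither value was determined at this depth. At the entry and decoding site of the small subunit, Rps3 rose from 359 to 517 CPM in control mice to 684 to 911 CPM in knockout mice (0.88, SE 0.11, adjusted p = 2.2e-06). Rps2 (1.26) and Rps15 (0.82) rose too, and Rps23 had 0.48 (95% interval -0.06 to 1.02, adjusted p = 0.18).

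Rpl5 and Rpl11 bind 5S ribosomal RNA, and when not built into ribosomes this particle is known to hold MDM2 and so stabilize p53. Rpl5 was at 4.33, 6.72 and 7.97 CPM in control and 4.38, 5.41 and 7.05 CPM in knockout mice, fully overlapping (log2 fold change -0.23, 95% interval -0.57 to 0.11). Rpl11 was called higher at 1.19 (SE 0.43, adjusted p = 0.034) on a mean of 7.65 counts, with 0.217 to 1.58 CPM in control and 1.23 to 3.49 CPM in knockout mice. Its call was lost without replicates 2 or 6 of tg.7d or replicates 1, 2 or 5 of wt.7d (0.89 to 1.51 over all mice left out) and with the replicate block (1.20, adjusted p = 0.055).

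Of the members with a known role in signalling or outside the ribosome, 5 of 8 tested rose, Rpl13a among them. This share is close to that of all members, of which 49 of 78 rose. Rpl22, an RNA-binding protein with a role in lymphocyte development, was at 212, 234 and 244 CPM in control and 350, 407 and 489 CPM in knockout mice (0.86, SE 0.09, adjusted p = 7.4e-07). Rpsa, also the laminin receptor, rose by 0.85 on the log2 scale, Rps27a, made as a fusion with ubiquitin, by 1.41 on a mean of 11.8 counts, and Rpl10, which helps the subunits join, by 1.0 on a mean of 9.33 counts. Rpl3, next to the peptidyl transferase centre, had 0.22 (95% interval -0.18 to 0.62). Rps6 and Rps4x had means of 1.04 and 1.5 counts and intervals of -1.46 to 1.78 and -1.45 to 1.75, so that no statement on them was possible at this depth.

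Rps27 and its paralogue Rps27l, a known p53 target, encode proteins of equal coding length (252 bases). All of the words at the coding end of Rps27 occurred in other genes, against 58.7% of those of Rps27l. Rps27 was at 1.52, 1.97 and 2.50 CPM in control and 1.09, 3.75 and 5.71 CPM in knockout mice at 7 days, with 1 knockout mouse below all control mice (log2 fold change 0.94, SE 0.32, adjusted p = 0.026). This call was lost without replicate 1, 2 or 5 of tg.7d or replicate 1 of wt.7d and with the replicate block (0.86, adjusted p = 0.057). Rps27l was at 66.4, 74.1 and 94.1 CPM in control and 92.6, 109 and 123 CPM in knockout mice, with overlap through 1 control mouse (0.53, SE 0.11, adjusted p = 0.00076). At 3 days the values were 0.22 (SE 0.40) for Rps27 and 0.20 (SE 0.18) for Rps27l, and neither was called.

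The 3 members that fell differ in kind. Rps4l, annotated in GENCODE M21 as a transcribed processed pseudogene (chr6:148354656-148355598), was at 36.4, 55.5 and 73.4 CPM in control and 19.7, 24.1 and 33.9 CPM in knockout mice, without overlap (log2 fold change -1.07, SE 0.18, adjusted p = 9.3e-05). Rpl6, a large subunit protein (chr5:121204481-121209241), was at 19.6, 30.6 and 41.5 CPM in control and 15.7, 19.6 and 26.7 CPM in knockout mice, with overlap (-0.63, SE 0.17, adjusted p = 0.0061). Rpl27a (chr7:109519147-109522367) was at 22.0, 27.3 and 32.0 CPM against 17.6, 22.7 and 24.4 CPM (-0.30, SE 0.10, adjusted p = 0.027), and its call was lost without replicate 3 of tg.7d or replicate 6 of wt.7d. All of the words at the coding ends of Rpl6 and Rpl27a occurred in other genes, with copies in 13 and 24 pseudogenes.

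**Figure D4:**
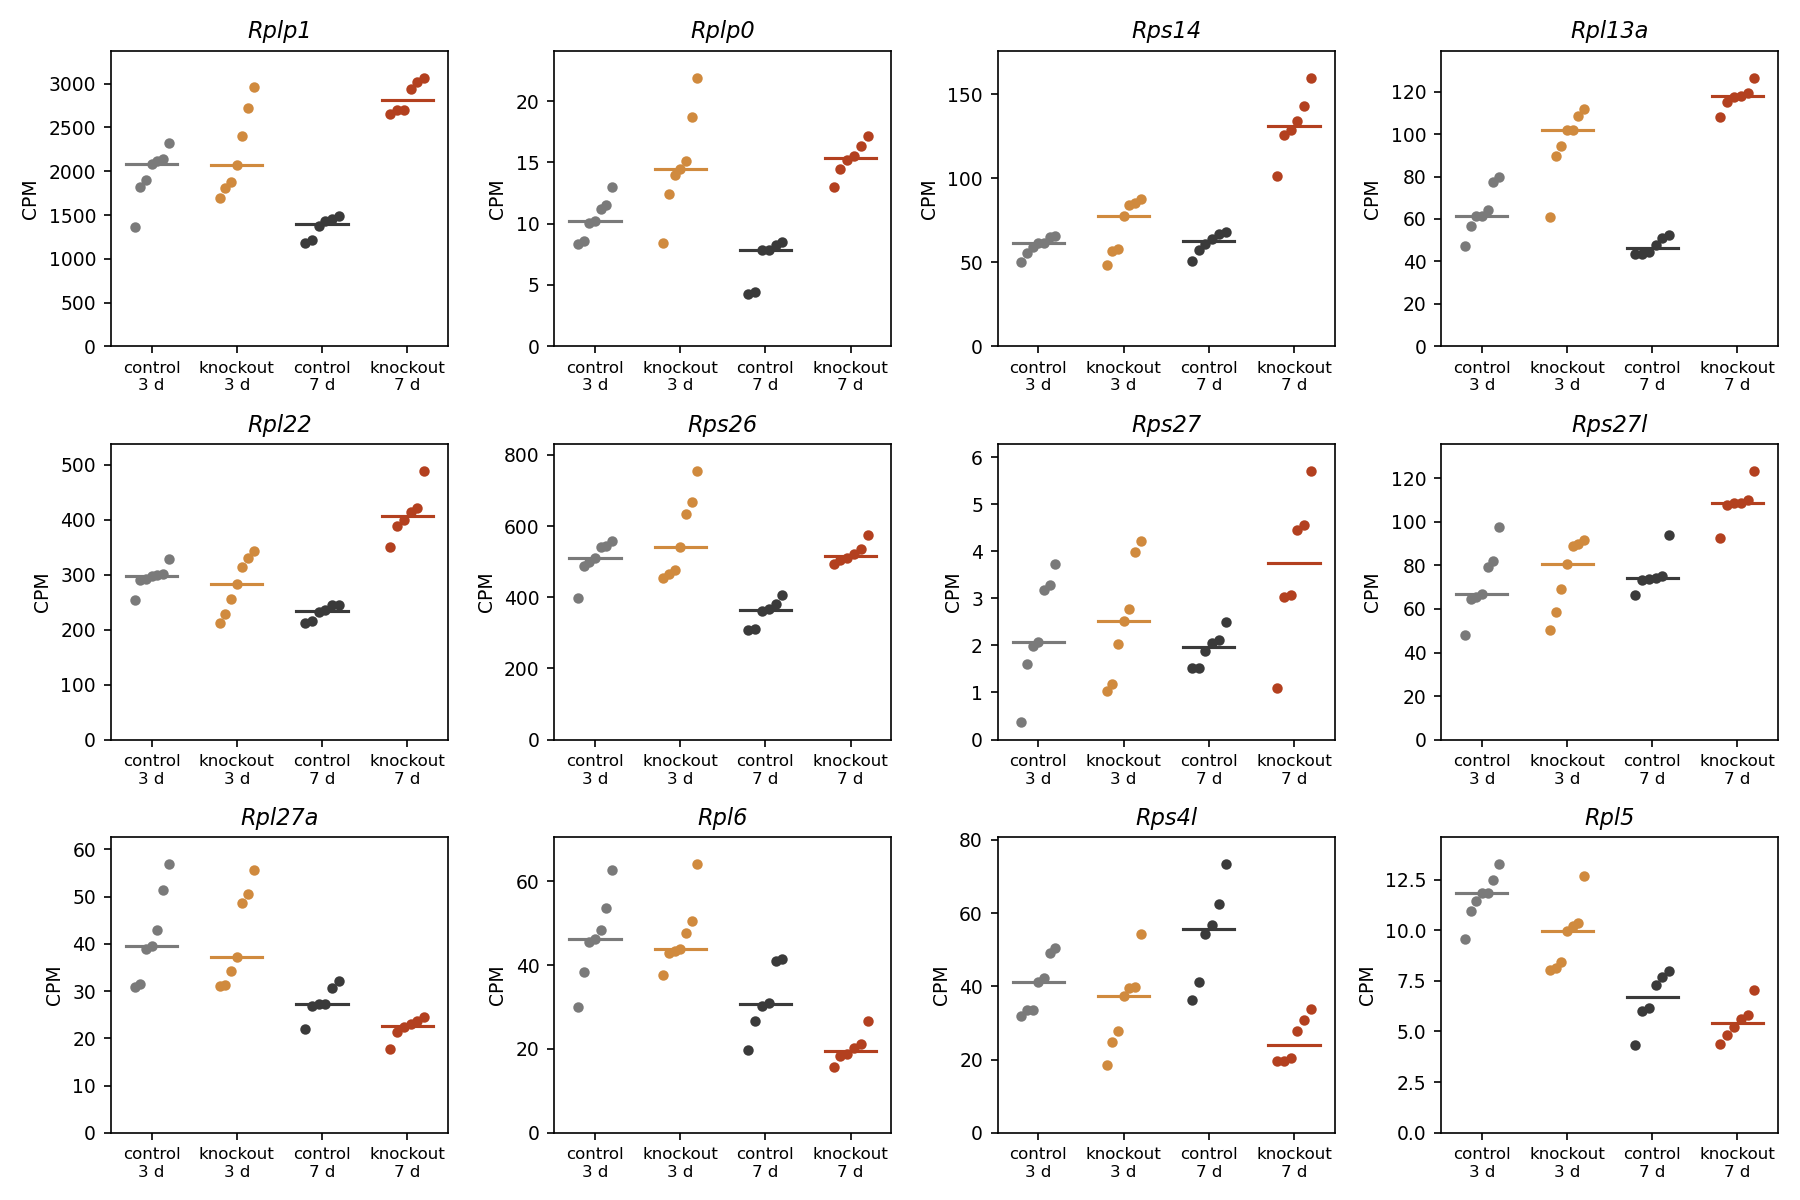
CPM of 12 members in every mouse, 1 point per mouse with the group median as a line, for control and knockout mice at 3 and 7 days; each panel has its own axis from 0. At 7 days Rplp1, Rplp0, Rps14, Rpl13a, Rpl22 and Rps26 show no overlap between genotypes, Rps4l is lower in every knockout mouse, and Rpl5 overlaps.

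At 3 days a single member was called. Of 78 members tested, Rpl13a rose and none fell by edgeR, where 1.11% of all 20760 genes tested rose and 0.323% fell. No member had all knockout mice above or below all control mice, as 0.356% and 0.491% of all genes tested did. The 1 call among 78 members is close to the share of all genes that rose. At an unadjusted p under 0.05, 10 members were higher and none lower, and DESeq2 called 5 higher and 0 lower. The shares of all genes at that p and with DESeq2 are not given here, so these counts have no background beside them. Rpl13a was at 47.4, 61.2 and 79.8 CPM in control and 60.8, 102 and 112 CPM in knockout mice, with overlap through 1 knockout mouse (log2 fold change 0.69, SE 0.15, adjusted p = 0.027). Its call was lost without replicate 3, 4 or 7 of tg.3d or replicate 2, 4, 6 or 7 of wt.3d, and with the replicate block (0.69, adjusted p = 0.16). Without replicate 1 of tg.3d, a library poor in enterocyte transcripts, 6 members were called higher, and without all 3 such libraries 3 were, whereas 1 was without the libraries rich in pancreas or stomach transcripts. Leaving out libraries can also change how many of all genes are called, and those shares are not given here. The members with the next lowest p were Rpl41 (0.52, SE 0.15, adjusted p = 0.098), Rpl4 (0.43, SE 0.12, adjusted p = 0.10) and Rplp0 (0.63, SE 0.18, adjusted p = 0.11), which passed no threshold. The median over members was 0.18, against -0.03 over all genes, and scaling to total counts moved the latter by -0.10 and left the members' median 0.20 above it, from 0.21.

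The change of the genotype effect from 3 to 7 days was tested as an interaction over all 26 libraries. Of 77 members tested, 22 had a more positive effect at 7 days and 2 a more negative one, where 8.64% and 9.74% of the 19604 genes tested did so, and the median over members was 0.58 against 0.03 over all genes. Among members with at least 100 counts the 5 largest included Rpl23 (0.88, SE 0.20), Rpl22 (0.84, SE 0.15), Rplp1 (0.83, SE 0.18) and Rpl32 (0.80, SE 0.18). Rpl22 was close to 0 at 3 days (0.04, SE 0.12), with 213, 283 and 344 CPM in knockout and 253, 297 and 329 CPM in control mice. The members with a more negative effect were Rps4l (-0.95, SE 0.30) and Rpl6 (-0.74, SE 0.25). Rpl6 lost this call without replicate 7 of wt.3d, 1 of tg.7d or 2 or 3 of wt.7d, and neither Rpl6 nor Rps4l was called once the 7 libraries rich in pancreas or stomach transcripts were left out. Of the members with a more positive effect, Rpl8, Rpl13, Rpl18 and Rps3 lost the call in 20, 19, 15 and 6 of the fits that left out 1 of the 26 mice. The genotype effect also became more negative for 10 of 12 enterocyte markers and 12 of 13 proliferation markers, whose part in the result was not tested.

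Control mice alone showed how members differ between the days without the deletion. Day and any batch of tissue collection cannot be told apart here. Of 77 members tested, 5 were higher at 7 days and 7 lower, where 19.7% and 16.3% of the 20646 genes tested were, with a median of -0.13 against -0.06 over all genes. Rps4l rose by 0.79 on the log2 scale (SE 0.16, adjusted p = 0.0012), from 32.0, 41.1 and 50.4 CPM to 36.4, 55.5 and 73.4 CPM, and Rps29, Rps15, Rps27l and Rps14 rose by 0.75, 0.48, 0.45 and 0.41. The calls of Rps29 and Rps27l were lost without replicate 3 of wt.7d, and that of Rps27l also without replicate 5 of wt.3d. Rps24 was the one member with a mean of at least 100 counts among those called lower (-0.42, SE 0.15, adjusted p = 0.033), at 13.4 to 28.9 CPM at 3 days and 10.6 to 16.4 CPM at 7 days. Other called falls were those of Rpl23a (-0.84), Rps19 (-0.58), Rps21 (-0.47), Rpl5 (-0.46) and Rps13 (-0.44). Apart from that of Rpl23a, each of these calls was lost in 3 to 9 of the fits that left out 1 mouse. These directions depended on scaling: with total counts in place of TMM, 1 member was higher and 36 lower, since the median of all genes moved by -0.36, and the distance of the members' median from it was -0.08 under both. The number lower ran from 2 without replicate 5 of wt.7d to 12 without replicate 5 of wt.3d. For total counts and for the fits without a mouse, the shares of all genes called are not given here. Those counts are therefore not read as a result about members. In the same comparison 12 of 12 enterocyte markers rose (1052 to 12801 CPM at 3 days) and 6 of 6 smooth muscle markers fell (1629 to 2933 CPM at 3 days), and their part in the result was not tested.

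Lists of genes around the ribosome were counted in the same fits, and the genes named are those with the largest called changes among genes with at least 100 counts. At 7 days, when 19.7% of all genes tested rose and 18.8% fell, 16 of 22 other genes with TOP transcripts rose, with a median of 0.59. Among them, the elongation factors Eef1a1 and Eef1b2 rose by 1.59 and 1.32 on the log2 scale. Of 52 genes of ribosome biogenesis, 39 rose and 4 fell, led by Npm1 (1.22, also a TOP gene) and Ltv1 (1.17), and by Nop9 (-1.27) and Rcl1 (-0.34) in the other direction. At 3 days 15 of these 52 rose, where 1.11% of all genes did, among them Mrto4 (0.89) and Lyar (0.86). Of 21 other TOP genes tested then, edgeR called 0, and 6 were higher at an unadjusted p under 0.05. The difference between these lists was not tested. Mitochondrial ribosomal protein genes were 45 higher and 4 lower of 78 at 7 days, with a median of 0.39 and Mrps18a (1.14), Mrps6 (1.07), Mrpl34 (-0.65) and Mrpl18 (-0.52) named by this rule, and 1 of 78 was higher at 3 days (Mrpl52, 0.61). Of 33 tested -ps pseudogenes, 14 rose and 1 fell at 7 days, with a median of 0.85.

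Among RNA polymerase I subunits, its factors and the Myc network, 7 of 14 rose and 3 fell at 7 days, with Polr1c (1.04) and Polr1a (0.88) highest and Mxd1 (-1.45) and Mxi1 (-1.28), partners of Max that oppose Myc, lowest. In the mTORC1 list 12 of 25 rose and 4 fell. The falls in both lists are shares near the 18.8% of all genes tested that fell, whereas 19.7% of all genes rose. Eif4ebp1, the inhibitor of cap-dependent initiation, rose by 3.39 and Ddit4, an inhibitor of mTORC1, by 1.23, whereas Sesn1 (-2.37) and Castor2 (-1.82) fell. Other members of the same families, named after their values were seen, went the other way or passed no threshold: Sesn2 (2.06, SE 0.16, adjusted p = 7.4e-09) and Castor1 (0.95, SE 0.33, adjusted p = 0.027) were called higher, and Sesn3 had 0.39 (SE 0.17, adjusted p = 0.071). Of 15 genes of eIF2 and its kinases 9 rose and 1 fell, with Ppp1r15a (3.82) and Atf4 (1.87) highest and Eif2ak2 (-0.26) called lower. In the p53 list, which shares Rps27l with the members, 9 of 11 rose and 1, Sesn1, fell, led by Ccng1 (1.81) and Cdkn1a (1.79) among genes with at least 100 counts. Of 8 ribosomal protein and related genes whose symbols escape the rule, 4 rose at 7 days. The one of these 4 with at least 100 counts was Rps19bp1 (0.52), and Rpl22l1, the paralogue of Rpl22, had 1.68 (SE 0.43, adjusted p = 0.0048) on a mean of 7.19 counts.

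**Figure D5:**
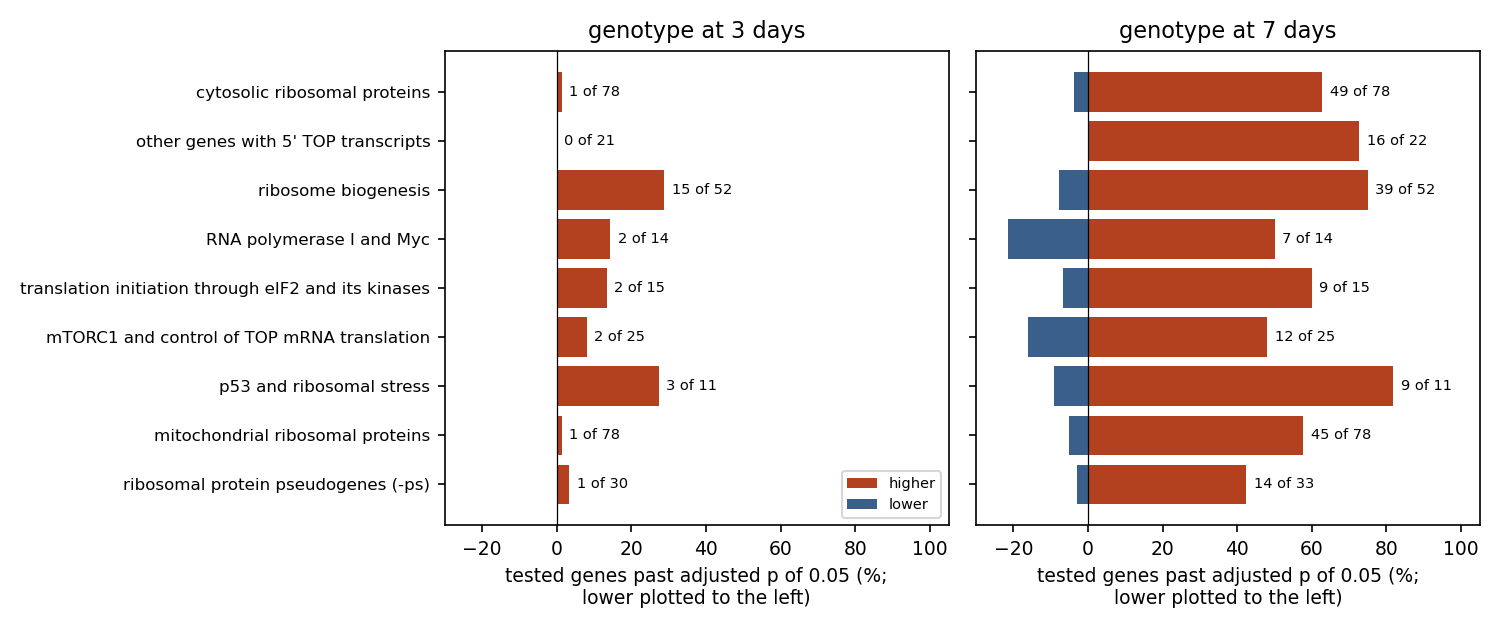
Percent of tested genes called higher (to the right) or lower (to the left) in knockout mice at 3 days (left panel) and 7 days (right panel) for members and 8 lists of related genes, with the number higher of the number tested beside each bar. At 3 days ribosome biogenesis has 15 of 52 higher and members 1 of 78, and at 7 days these are 39 of 52 and 49 of 78.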

How the data were processed

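The authors trimmed QuantSeq reads with Cutadapt 2.10 (minimum length 35), aligned them to GRCm38 with Subread and counted them per gene with featureCounts 2.0.1 (Ensembl 100 annotation, primary alignments of mapping quality 30 or more, fractional assignment of reads on several genes), as estimated counts per gene without normalization. The deposited counts were rounded to whole numbers here; 95.0% were whole. The CPM file was not used. Genes at 0 in most libraries of either group were left out, as in the study. Comparisons used edgeR 4.0.16 (TMM, quasi-likelihood, Benjamini-Hochberg), with DESeq2 1.42.0 and other scalings, filters and sample sets as alternatives. SEs were derived from log2 fold changes and their F statistics, and intervals are 95%. CPM values were scaled to total counts. The fits were tested on simulated data with 200 changed genes per comparison. Of 2-fold changes, 71.3% were called at 3 days, 89.1% at 7 days, 47.5% in the interaction and 87.8% between control mice. The changed genes were drawn from those with a mean above 5 CPM, so members below that level were not covered. Far more genes were called in the data, with 19.7% higher and 18.8% lower at 7 days. The rates therefore need not hold for members. Mice are the replicates. Members and lists were chosen with earlier results of these data known; named with values were members with a role in the ribosome or elsewhere, the 5 largest called changes each way among those with a mean of at least 100 counts, members under 10 counts, and the 2 largest called changes each way per list at that minimum. The targeted gene and some members are not reported here. Positions are from GENCODE M21 and start windows from RefSeq.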

Additional observations from a re-analysis of the deposited data

Results flagged for a closer look

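In the interaction test the genotype effect differed between 3 and 7 days for 24 members, 21 of them named here. It was more positive at 7 days for Rpl19 (1.14), Rps12 (0.95), Rpl17 (0.89), Rpl23 (0.88), Rpl18 (0.87), Rpl22 (0.84), Rplp1 (0.83), Rpl39 (0.82), Rpl32 (0.80), Rps14 (0.79), Rpl26 (0.75), Rps20 (0.70), Rpl13a (0.68), Rps15a (0.64), Rps3 (0.60), Rpl4 (0.60), Rpl37a (0.51), Rpl13 (0.48) and Rpl8 (0.44). It was more negative for Rpl6 (-0.74) and Rps4l (-0.95).

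A single library stood apart from its group in 4 of 72 groups of mice looked at, where chance gives about 1 in 20. Replicate 5 of wt.3d, the library with the most stomach transcripts, had the lowest summed share of members (0.635%, nearest 0.790%) and the lowest Rps24 (13.4 CPM). Replicate 1 of tg.3d had the lowest Rpl13a (60.8 CPM, nearest 89.8), and replicate 3 of wt.7d the highest Rps27l (94.1 CPM, nearest 75.1).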

How the results depend on the processing

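At 7 days the members called higher numbered 42 to 49 under every alternative and 41 to 50 with each mouse left out, those called lower 2 to 3, and the median was 0.67 to 0.80 (0.65 to 0.74 with a mouse left out). The change from 3 to 7 days gave 19 to 25 higher (18 to 24) and 2 lower (1 to 2), or 0 lower without the libraries rich in pancreas or stomach transcripts. At 3 days the members called higher numbered 5 with DESeq2, 4 with all 26 libraries in 1 fit, 3 without the libraries poor in enterocyte transcripts, 0 with total counts or with covariates, and 0 to 6 with a mouse left out. The shares of all genes called under the alternatives of this section are not given here.

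In control mice, total counts gave 1 higher, 36 lower, a median of -0.49 and a reversed Rpl22 (-0.35). The number higher was 2 at 1.5-fold and 3 without either set of doubted libraries, and 3 to 8 with a mouse left out. The number lower was 4 without a filter, 2 at 1.5-fold, 3 with covariates, 12 without the libraries poor in enterocyte transcripts, and 2 to 12 with a mouse left out. The median of members with at least 100 counts was 0.016. Causes were not tested.

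Leaving out doubted libraries and the restriction to 100 counts were chosen after seeing the data. The labels do not say whether mice of the same number were paired, and the paper used littermates as controls. Deviations correlated above 0.1 in 2 of 7 same-numbered pairs at 3 days and 2 of 6 at 7 days. Between control mice of the 2 days 1 of 6 did so. Such correlations cannot decide whether the mice were paired. With a replicate block the members higher were 45 at 7 days and 0 at 3 days, and 2 were lower in control mice. Depth limits members under 10 counts, such as Rps6, Rps4x and Rpl35, whose intervals at 7 days span several log2 units. Of the 11 tested members under 10 counts, 4 were called higher at 7 days.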
